A study of Rattus norvegicus with 4 samples.

Results

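The MHC class II genes measured here were Cd74, RT1-Ba, RT1-Bb, RT1-Da and RT1-Db1, which are 5 of the 32623 genes in the deposited matrix. They were taken by symbol, and the set was put together with their levels in TN and HC and their relation to macrophage genes already known, so their difference between TN and HC is given as a description with no test. Spatial gene expression was measured on Visium slides, where each spot of a capture area catches mRNA from the tissue above it and may hold several cells. The TN tissue was nerve root, ganglion and the first stretch of the branches, taken on the operated side from adult male Sprague-Dawley rats, labelled wild type, after chronic compression of the trigeminal nerve root, with 1 animal in each of the areas TN1, TN2 and TN3. The HC area held tissue of 2 animals and is a single sample, labelled as negative control. The methods of the study call the controls sham-operated without compression, whereas other text takes the HC tissue from the healthy side and, in the series description, from TN animals, so HC may share animals with TN. The strain is outbred, the tissue was packed into the capture areas, and the share of root, ganglion and nerve differed between areas.

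MHC class II molecules are heterodimers of an alpha and a beta chain that show peptides from engulfed proteins to CD4+ T cells. In the rat, RT1-Ba and RT1-Bb encode the alpha and beta chains of the RT1-B molecule and RT1-Da and RT1-Db1 those of RT1-D. Cd74 encodes the invariant chain, which holds the peptide groove closed until the dimer reaches the endosome. These genes are transcribed in antigen-presenting cells such as dendritic cells, B cells and activated macrophages, and in the sensory ganglion and nerve resident macrophages are a known source. Their shared promoter contains an X box and a Y box, which are bound by RFX and NF-Y, and the coactivator Ciita, itself induced by interferon gamma, sets their output.

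The RT1 genes lie together on chromosome 20 in RefSeq's annotation of GRCr8, at 4515393 to 4520387 for RT1-Da, 4550594 to 4560182 for RT1-Db1, 4577057 to 4581650 for RT1-Ba and 4598475 to 4604118 for RT1-Bb. Cd74 lies apart from them on chromosome 18. The sources used here do not name the build used for counting. The 110 bases that begin 130 bases before the start in RefSeq's promoter table are shown for the 4 RT1 genes, 5′ to 3′ on each gene's own strand, because the X and Y boxes are what the members share. Capitals mark the letters ACNGATG of the X box core and ATTGG of the Y box.
RT1-Da (plus strand, chr20:4515285-4515394): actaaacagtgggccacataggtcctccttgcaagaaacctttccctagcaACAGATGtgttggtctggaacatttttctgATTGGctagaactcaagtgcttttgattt
RT1-Db1 (minus strand, chr20:4560183-4560292): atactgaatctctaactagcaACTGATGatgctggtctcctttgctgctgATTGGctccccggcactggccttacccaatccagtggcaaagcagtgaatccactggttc
RT1-Ba (plus strand, chr20:4576927-4577036): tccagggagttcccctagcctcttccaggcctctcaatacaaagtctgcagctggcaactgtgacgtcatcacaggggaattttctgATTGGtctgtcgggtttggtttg
RT1-Bb (minus strand, chr20:4604139-4604248): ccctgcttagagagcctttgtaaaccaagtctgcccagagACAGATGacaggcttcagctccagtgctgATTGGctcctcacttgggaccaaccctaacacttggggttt
RT1-Da, RT1-Db1 and RT1-Bb held an X box core followed by a Y box, with 23, 22 and 22 bases between them. RT1-Ba held the Y box without the letters of the X box core. The promoter of Cd74 held no X box core and a single CCAAT, the Y box on the other strand, 189 bases before its start. Of 27457 rat promoters of the same length, searched on both strands, 9.96% held the X box core and 37.7% the Y box, and 45 (0.164%) held the pair on the gene's strand with 10 to 40 bases between. The letters were chosen with these promoters in view, and a match is a description of the sequence only. Among the other class II genes the pair was also in RT1-DMa and RT1-DOb, a subunit of each of the peptide-loading dimers DM and DO.

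TN1 had 23546025 UMIs, TN2 38769935, TN3 32239597 and HC 41335930, over 1587, 1256, 1917 and 2013 spots, with a median between 9487 and 30808 UMIs per spot. Barcodes mark slide positions, and 2337 of 3573 distinct barcodes recurred in 2 or more areas. Spots were grouped into 10 clusters without the class II, pathway and immune genes, and clusters were named by marker lists. Of the ganglion spots, cluster 9, led by nerve injury genes such as Csrp3 and Gal, held 101, 375 and 275 spots of TN1, TN2 and TN3 and 2 of HC, while cluster 6 held 210, 42, 130 and 943. Blood and bone spots were most frequent in HC, which had 529 spots of that cluster against 65, 12 and 145 in the TN areas. A cluster left unnamed, with connective tissue (1.43) and peripheral myelin (1.19) as its leading scores, held 327 and 503 spots of TN2 and TN3. It held 0 spots of TN1 and HC. The connective tissue and central neuron clusters held 0 HC spots and the astrocyte cluster 1, so whole-area levels of TN cover tissue that HC lacked or nearly lacked.

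All members stood above HC in each of the 3 TN areas. Cd74, the invariant chain, was at 388, 590 and 527 CPM (UMIs scaled to a total of 1000000 in each area or, further on, region) in TN1, TN2 and TN3 and at 91.5 in HC. The TN areas lay together and HC stood well below the lowest of them. The fitted log2 fold change of Cd74 was 2.37 ± 0.36 (SE, n = 3 TN areas and 1 HC area).

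The RT1-B chains differed from each other in how they varied among the TN areas. RT1-Ba, the alpha chain, was at 51.0, 64.2 and 69.6 CPM in TN1, TN2 and TN3 and at 8.81 in HC, with a log2 fold change of 2.73 ± 0.32 (SE). RT1-Bb, its beta chain, was at 11.5, 5.57 and 2.92 CPM and at 0.484 in HC, where it rested on 20 UMIs. RT1-Bb was highest in TN1, the area where RT1-Ba was lowest among the TN areas, and its log2 fold change was 3.69 ± 1.02 (SE). TN1 had 0.225 RT1-Bb UMIs per RT1-Ba UMI, TN2 0.0868, TN3 0.0419 and HC 0.0549. In the ganglion alone this ratio was 0.242, 0.0917 and 0.0625 in the TN areas and 0.0591 in HC, and in the peripheral myelin of TN1 it was 0.245. In central myelin TN1 did not stand out, where the ratio was 0.0667, 0.0714 and 0.0217 in the TN areas and 0.0208 in HC, on 5, 2, 1 and 1 RT1-Bb UMIs, and in the blood and bone spots of TN1 there were 0 RT1-Bb and 22 RT1-Ba UMIs. The peripheral myelin of HC gave 0.20 on 2 and 10 UMIs.

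The RT1-D chains were both above HC but in unequal measure. RT1-Da, the alpha chain, was at 86.2, 146 and 131 CPM in TN1, TN2 and TN3 and at 18.0 in HC, with a log2 fold change of 2.67 ± 0.41 (SE). RT1-Db1, the beta chain, was at 66.1, 113 and 88.3 CPM and at 23.8 in HC, with a log2 fold change of 1.82 ± 0.37 (SE). HC was the area in which RT1-Db1 exceeded RT1-Da: there were 1.32 RT1-Db1 UMIs per RT1-Da UMI in HC and 0.767, 0.770 and 0.671 in the TN areas. Within HC the ratio was 1.45 in the ganglion and 1.34 in blood and bone spots, but 0.857 in peripheral myelin, on 24 and 28 UMIs, and 0.659 in central myelin, on 54 and 82 UMIs, where the TN areas had 0.670, 0.691 and 0.761. RT1 genes differ in sequence between rats and share sequence with each other, and how far this moved their counts between animals was not tested.

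**Figure D1:**
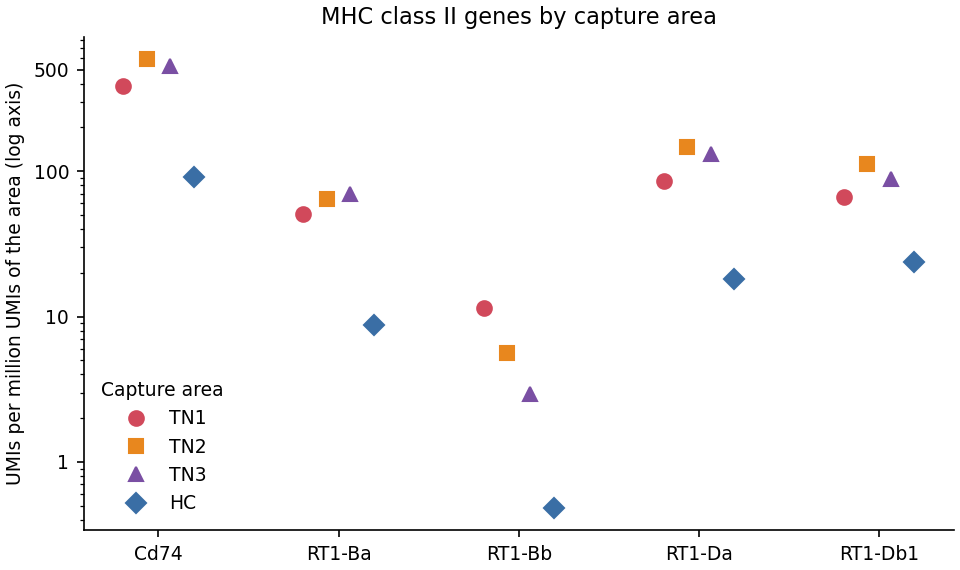
CPM on a log axis for each class II gene, with 1 point per capture area and no error bars, since each point is a single area. The HC point is the lowest for every gene, and RT1-Bb spreads most among the TN areas, from 2.92 to 11.5.

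The invariant chain kept a steady share of the class II UMIs. Cd74 made up 64.4%, 64.2% and 64.3% of the summed UMIs of the members in TN1, TN2 and TN3 and 64.2% in HC, although the sum itself was 603, 919 and 820 CPM in the TN areas and 143 in HC. By region the share ran from 59.96% in the peripheral myelin of TN1 to 70.6% in the central neuron spots of TN1. These are shares of UMIs counted from the 3′ end of transcripts and are not corrected for how well each gene is captured.

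In the fit over all genes, 0 of 14902 genes (0%) passed an adjusted p of 0.05 by edgeR's quasi-likelihood test over all spots, while 1271 were under 0.05 without adjustment and 158 passed in DESeq2. The members' median log2 fold change was 2.67 beside 0.06 over all genes tested. Above HC in every TN area were 5 of 5 members, against 28.7% of all genes tested, and above it by 2-fold or more were 5 of 5, against 4.01%. Since the members were chosen on this contrast, the counts describe the choice. Without TN1, the shallowest area, 2171 of 14692 genes (14.8%) were called, and the members' log2 fold changes stayed between 1.99 and 3.03. Fewer cells of a type and less RNA per cell cannot be told apart in these sums.

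The same direction was present in the ganglion and in central myelin taken alone. Both regions are parts of the area sums on which the members were chosen. In the ganglion, Cd74 was at 523, 674 and 352 CPM in TN1, TN2 and TN3 and at 87.6 in HC, with a log2 fold change of 2.49 ± 0.41 (SE). In central myelin, where oligodendrocytes ensheath the root, Cd74 was at 230, 244 and 269 CPM in the TN areas and at 80.9 in HC, with a log2 fold change of 1.54 ± 0.28 (SE). The HC levels of both regions were close, while Cd74 in the ganglion was 2.28 and 2.77 times its central myelin level in TN1 and TN2 and 1.31 times in TN3. The difference between the regions in the TN response was not tested. Central myelin pooled clusters 3 and 10 in unlike shares. Cluster 3 held 341 of 479 spots in HC and 71 of 384, 46 of 182 and 63 of 284 in TN1, TN2 and TN3. The mean summed class II level of the TN areas was 3.23 times HC in central myelin, 3.02 times in cluster 3 and 2.53 times in cluster 10. The members' median log2 fold change was 2.70 in the ganglion and 1.72 in central myelin, beside 0.03 over all genes in each, and RT1-Bb did not pass the filter on low counts in central myelin. Higher in all 3 TN areas were 5 of 5 members in the ganglion, against 28.5% of 13059 genes, and 4 of 4 in central myelin, against 21% of 9764 genes. By 2-fold or more the same counts of members stood against 2.8% and 1.09%. As over all spots, these counts describe the choice of the members. By edgeR's test 0 genes (0%) passed in either region, 1297 and 309 had an unadjusted p under 0.05, and by DESeq2 133 and 4 were called.

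Ganglion spots of HC lay almost wholly in cluster 6, and most of those of TN2 and TN3 in cluster 9. In cluster 6 alone, which had 20 or more spots in every area, the summed class II level was 532, 391 and 369 CPM in TN1, TN2 and TN3 and 138 in HC. The TN areas lay above HC. The log2 fold changes were smaller than over the whole ganglion, at 1.61 for Cd74 instead of 2.49 and 1.03 for RT1-Db1 instead of 1.83. Cluster 6 held 72.3% of the class II UMIs of HC. It is thus a large part of the sums on which the members were chosen, and the direction describes that choice. Within the TN areas, cluster 9 held 2.63, 2.94 and 1.89 times the class II level of cluster 6 in TN1, TN2 and TN3. By member, this ratio ran from 1.72 times for RT1-Db1 in TN3 to 4.44 times for RT1-Bb in TN2, the latter on 4 RT1-Bb UMIs in cluster 6. The share of all genes that were higher in cluster 9 was not counted. The macrophage list was also higher there, at 1.81, 2.30 and 1.66 times, while the satellite glia list was at 1.02, 1.17 and 1.06 times. Class II per macrophage UMI was 1.46, 1.28 and 1.14 times that of cluster 6. Whether macrophage content accounts for the class II level of these spots was not tested.

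The order of the regions by summed class II level differed between areas. Connective tissue came first in TN2, at 1079 CPM, and in TN3, at 1519. The ganglion of TN2 followed at 1040, above its astrocyte-rich spots at 939 and an unnamed cluster at 936. In TN3 the unnamed cluster was at 1155 and the astrocyte-rich spots at 1074, and the ganglion, at 534, was below the peripheral myelin. Peripheral myelin, made by Schwann cells, was at 883 CPM in TN1, 577 in TN3 and 234 in HC. Central myelin was at 342, 347, 421 and 115 CPM in TN1, TN2, TN3 and HC. The lowest TN levels were in central neuron spots, at 127 in TN1 and 177 in TN2. The unnamed cluster, absent from TN1 and HC, held 27.4% of the class II UMIs of TN2 and 46.5% of those of TN3. In HC the order was peripheral myelin, blood and bone at 192, ganglion at 138 and central myelin. In TN1 it was peripheral myelin, ganglion at 802, blood and bone at 366, central myelin and central neurons, and with 1 area per value the neighbours in these orders have no error of their own.

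**Figure D2:**
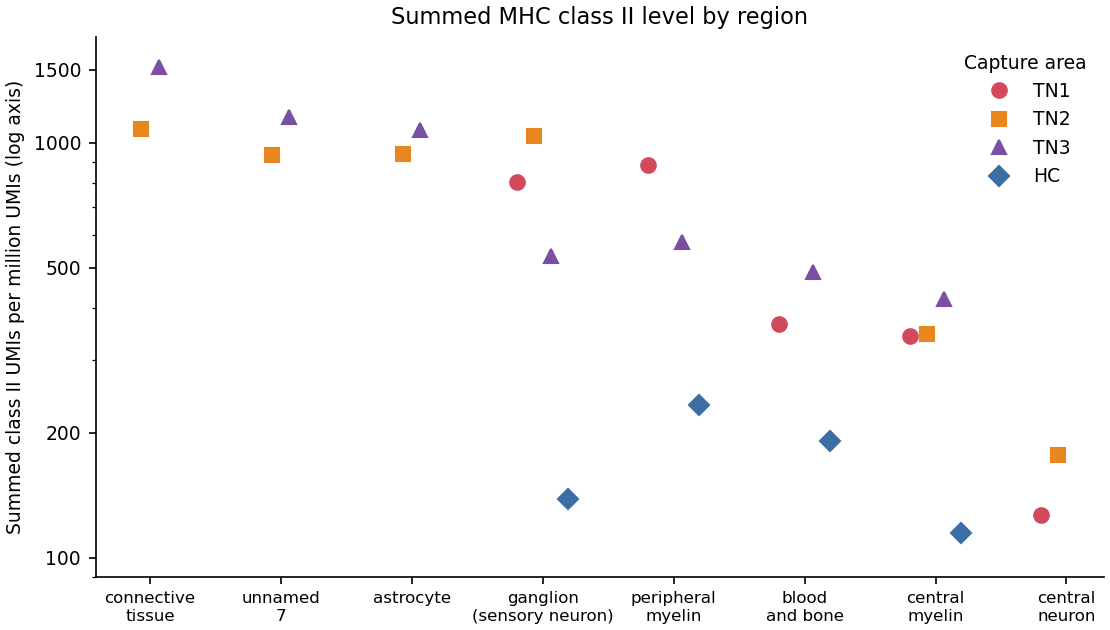
Summed class II CPM on a log axis, by region and capture area, for regions with at least 20 spots in an area. In every region that HC shares with TN areas the HC point is the lowest, from 115 in central myelin to 234 in peripheral myelin, and the TN points run from 127 in central neuron spots to 1519 in connective tissue.

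The share of spots with a class II UMI rises with depth, so spots were thinned to 2000 UMIs. TN1 then had a Cd74 UMI in 36.2% of its spots (95% exact binomial interval 33.9 to 38.7), TN2 in 53.6% (50.8 to 56.4), TN3 in 51.9% (49.5 to 54.2) and HC in 16.0% (14.4 to 17.6). Unthinned, these shares were 73.7%, 93.5%, 86.4% and 65.2%. Thinning left out 9, 16, 116 and 9 spots below 2000 UMIs. At least 1 UMI of any member was in 45.9%, 64.7% and 65.1% of thinned spots of TN1, TN2 and TN3 and in 22.5% of HC. RT1-Bb was in 1.90%, 0.806% and 0.333% of them and in 0.150% of HC. RT1-Ba, RT1-Da and RT1-Db1 were in 2.00%, 2.74% and 4.34% of HC spots and in 8.56% to 18.5% of those of the TN areas. As a gene that sensory neurons and satellite glia should lack, the erythroid Slc4a1 was in 1.61% of thinned ganglion spots of TN1, 0.578% of TN3 and 1.69% of HC, and in 0 of 415 in TN2, which allows a share of up to 0.723%. In the same ganglion spots of HC, Cd74 was in 13.7% and RT1-Da in 2.33%, so the share of RT1-Da in HC lay close to that of Slc4a1. In those of TN1, TN2 and TN3, RT1-Da was in 17.4%, 21.0% and 16.2%. Over all thinned spots Slc4a1 was in 1.65%, 0.242%, 2.50% and 5.84% of TN1, TN2, TN3 and HC. It differed between areas, so it set no common floor for the class II genes. The intervals cover counting error only. By region the thinned Cd74 share in HC was between 12.9% in central myelin and 23.7% in peripheral myelin, and in the TN areas it ran from 16.3% in the central neurons of TN1 to 73.5% in the connective tissue of TN3.

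Macrophage markers moved with the class II genes between TN and HC. All 13 macrophage list genes stood above HC in each TN area over all spots, against 28.7% of all genes tested. Their summed level in the fit was 892 to 2959 CPM in the TN areas and 538 in HC, with none of the markers at 0. Their median log2 fold change was 1.76, beside 2.67 for the members. The members were chosen on this contrast, so their larger median does not show that they rose more than macrophage genes. None of the 13 passed the adjusted threshold, as for all genes. TN1 had 0.670 class II UMIs per macrophage UMI, TN2 0.388, TN3 0.278 and HC 0.276. TN3 and HC had nearly the same ratio, and TN1, which had the fewest macrophage UMIs among the TN areas, had the highest. With C1qa, C1qb, C1qc, Tyrobp and Fcer1g alone as macrophage genes the ratios were 1.47, 0.956, 0.571 and 0.528, in the same order. The part of macrophage content in the class II difference was not tested. In the ganglion, too, 13 of 13 macrophage genes were higher in every TN area, against 28.5% of all genes tested. Their summed level in the fit was 728 to 1704 CPM in the TN areas and 339 in HC. In central myelin 5 of 13 were higher in every TN area, against 21% of all genes tested. The summed level there was 1321 to 2687 CPM in the TN areas and 1452 in HC. HC thus lay within the TN range for the summed macrophage genes in central myelin, because of TN1. On CPM without TMM, this sum was 1354, 2364 and 2602 in TN1, TN2 and TN3 and 1391 in HC. For each of the 4 class II genes in that fit, HC lay below the TN range. Those genes were chosen on this contrast, so this does not set them apart from the macrophage genes.

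The ganglion and central myelin stood in opposite order for the summed class II level and for macrophage genes. On this scale the macrophage level of the ganglion was 0.543, 0.737, 0.424 and 0.235 times that of central myelin in TN1, TN2, TN3 and HC. The summed class II level of the ganglion was higher, at 2.35, 3.00, 1.27 and 1.21 times. Ganglion spots held more UMIs, however. Macrophage UMIs were 8498, 30196, 11990 and 10046 on 311, 417, 405 and 945 ganglion spots. In central myelin they were 2919, 3326, 3572 and 7615 on 384, 182, 284 and 479 spots. Per spot, the ganglion thus held more macrophage UMIs than central myelin in the TN areas and fewer in HC. In HC the members differed, at 0.941 times for RT1-Ba, 1.08 for Cd74, 1.15 for RT1-Da and 2.53 for RT1-Db1. RT1-Bb was at 2.67 times in HC, on 15 and 1 UMIs. Class II per macrophage UMI was 1.09, 0.596, 0.484 and 0.424 in the ganglion of TN1, TN2, TN3 and HC, and 0.252, 0.147, 0.162 and 0.0825 in central myelin. The ganglion ratio was thus 4.32, 4.06, 2.99 and 5.14 times that of central myelin, higher in 4 of 4 areas, HC included. Peripheral myelin was between them in TN1 and TN3, at 0.624 and 0.296, and above the ganglion in HC, at 0.540 on 59 spots. Microglia markers, which include P2ry12 and Tmem119, were lower in the ganglion, at 0.289, 0.294, 0.288 and 0.226 times their central myelin level. Microglia, the macrophages of central tissue, carry little class II at rest, and the part of the macrophage type in this ratio was not tested.

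**Figure D3:**
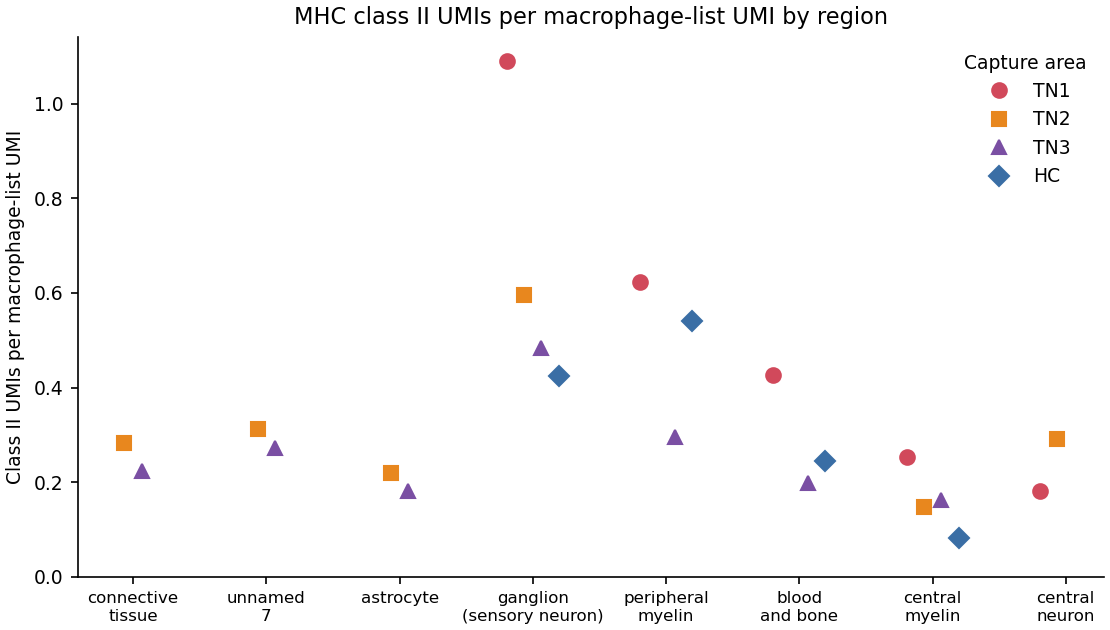
Class II UMIs per UMI of the macrophage list by region and capture area, on a linear axis from 0, for regions with at least 20 spots in an area. In each area the ganglion point lies above the central myelin point, at 0.424 against 0.0825 in HC and 1.09 against 0.252 in TN1.

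Other antigen-presenting and T cell markers were sparse. In the fit, dendritic cell genes summed to 1.26 CPM in HC and to 3.15 to 9.38 in the TN areas over the 5 tested genes. Of these, 4 (Xcr1, Clec9a, Batf3 and Itgax) were higher in all 3 TN areas, on few UMIs. In TN1, TN2, TN3 and HC, Xcr1 had 2, 48, 43 and 2 UMIs and Clec9a 8, 55, 45 and 13. Batf3 had 8, 24, 12 and 1 and Itgax 36, 177, 193 and 23. On CPM, Flt3 was at 3.35, 1.26 and 0.932 times HC in the TN areas. Zbtb46 was at 1.32, 0.400 and 0.641 times HC, and Ccr7 had 0 UMIs in all areas. T and NK cell genes were at 3.18 CPM in the fit in HC and 5.42 to 22.9 in the TN areas, with 6 of 7 higher in all. Most of the sum in TN2 and TN3 was Cd8a, at 0.807, 13.8, 12.2 and 0.387 CPM in TN1, TN2, TN3 and HC. Lck was at 1.08, 1.78 and 1.82 times HC in the TN areas, and Cd2 at 0.675, 3.77 and 3.75 times. Over all genes tested, 28.7% were higher in all 3 TN areas. B cell genes went the other way, at 15.6 CPM in the fit in HC and 5.27 to 9.63 in the TN areas, and Cd79a, Ms4a1 and Pax5 were at 0 UMIs in at least 1 area. Border macrophage genes were split, with Mrc1, Pf4 and Folr2 higher and Cd163, Lyve1 and F13a1 lower in all 3 TN areas. Endothelial genes were at 159 CPM in the fit in HC and 175 to 200 in the TN areas. The part of each cell type in the class II level was not tested.

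Over spots within an area, members rose and fell together in the TN areas and weakly in HC. The correlation of Cd74 with RT1-Da over spots (Pearson r on log values scaled to 10000 UMIs per spot) was 0.57, 0.62 and 0.49 in the TN areas, in the same order, and 0.30 in HC. Over the 10 pairs of members r ran from 0.38 to 0.57 in TN1, 0.30 to 0.62 in TN2, 0.16 to 0.49 in TN3 and 0.03 to 0.30 in HC. Spots of an area share the library and differ in depth and tissue, so r is a description without a test, and HC had the fewest class II UMIs, 5894 against 14201 to 35614 in the TN areas. The summed level correlated with the macrophage list at 0.33, 0.47, 0.45 and 0.03 in TN1, TN2, TN3 and HC, with the connective tissue list at 0.42, 0.44, 0.36 and 0.23, and with microglia markers at -0.04, 0.02, 0.22 and -0.04. Within the ganglion alone, the macrophage correlation was 0.68, 0.59, 0.30 and 0.32, so the low value of HC over all spots was not present there. In central myelin it was 0.27, 0.30, 0.28 and 0.21. With spots thinned to 2000 UMIs, the mean over areas of the macrophage correlation over all spots was 0.16 instead of 0.32.

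**Figure D4:**
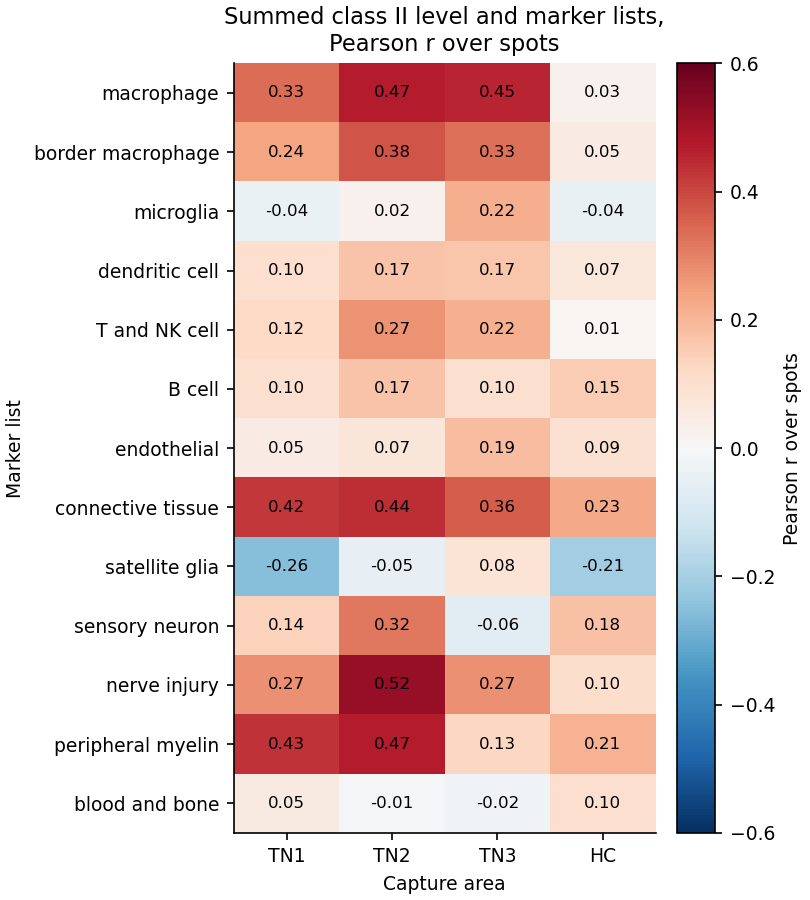
Pearson r over spots between the summed class II level and summed marker lists, in each capture area, with red for positive and blue for negative values. The lists shown are the immune, endothelial, satellite glia, connective tissue, sensory neuron, nerve injury, peripheral myelin and blood and bone lists. The peripheral myelin row is at 0.43, 0.47, 0.13 and 0.21 in TN1, TN2, TN3 and HC. The macrophage row is at 0.33, 0.47 and 0.45 in the TN areas and 0.03 in HC, and the nerve injury row is highest in TN2, at 0.52.

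The gene whose spot pattern was most like the summed class II level was Lyz2, a lysozyme of macrophages and other myeloid cells, with a mean r of 0.44 over the 4 areas (0.50, 0.59, 0.50 and 0.16 in TN1, TN2, TN3 and HC). It was followed, among 7831 genes with a UMI in at least 10% of spots of every area, by the intermediate filament Vim at 0.41, the galectin Lgals1 at 0.39, Crip1 at 0.38 and the actin nucleation subunit Arpc1b at 0.38. The matrix genes Sparc at 0.37 and Dcn at 0.37, Ahnak at 0.37, S100a6 at 0.36, S100a4 at 0.36, the protease inhibitor Timp1 at 0.35, Plekha4 at 0.35, Cd63 at 0.35, S100a10 at 0.34 and AABR07007068.1 at 0.34 completed the 15. The other macrophage list genes in this ranking lay lower, from C1qc at rank 163 with a mean r of 0.24 to Csf1r at rank 1349 with 0.12. Lyz2 gave 5949 of 21201, 38439 of 91724, 30927 of 94976 and 3605 of 21329 macrophage list UMIs in TN1, TN2, TN3 and HC. Among the processing genes Ctsb ranked 53 with a mean r of 0.30 and Ctss ranked 7072 with -0.02.

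The rest of the antigen presentation pathway was taken from a list of 39 genes, of which 38 were in the matrix and 30 were tested over all spots. None passed the adjusted threshold, 19 stood above HC in every TN area and 3 below it, against 28.7% of all genes above. On CPM without TMM these counts were 22 and 1, against 34.9%. Their median log2 fold change was 0.84, beside 0.06 over all genes. For some pathway genes TN1 lay at the level of HC. On CPM, Irf1 was at 1.03, 2.94 and 2.77 times HC in TN1, TN2 and TN3, and Icam1 at 1.01, 4.75 and 4.01 times. Others stood well above HC in TN1, such as Cd83 at 3.64 times. Fits without TN1 rest on TN2, TN3 and the single HC area, and leave out the area where Irf1 and Icam1 were not raised. Pathway genes were called in these fits only. None was called over all spots or in either region without TN2, without TN3 or by DESeq2. The shares of all genes called that follow count both directions, higher and lower. Without TN1, 9 of 31 were called higher by edgeR and 0 lower, against 14.8% of all genes called: Ifi30, Irf1, Irf8, Ifngr2, Jak2, Cd83, Cd86, Cd44 and Icam1. The corresponding counts were 5 of 27 in the ganglion (Ifi30, Irf8, Ifngr2, Cd44 and Icam1), against 5.36%, and 4 of 21 in central myelin (Ifi30, Irf8, Ifngr2 and Cd44), against 4.78%.

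Among the controls of transcription, the coactivator Ciita was at 1.44, 3.04 and 1.71 CPM in TN1, TN2 and TN3 and at 0.484 in HC, on 34, 118, 55 and 20 UMIs. HC was the lowest area, and the log2 fold change was 2.00 ± 0.69 (SE). The factors that bind the X and Y boxes differed less: Rfx5 was at 16.0, 22.1 and 19.4 CPM and at 11.4 in HC, and Nfyb at 25.3, 28.4 and 27.9 and at 18.7 in HC. Rfxank was at 12.9, 19.0 and 17.1 CPM and at 15.2 in HC, inside the TN range. Ifng, the cytokine that induces Ciita, had 0 UMIs in all areas, and its receptor subunit Ifngr2 was at 30.7, 60.9, 64.1 and 21.6 CPM in TN1, TN2, TN3 and HC. A count of 0 allows up to 3 UMIs in each area. Irf8, a myeloid transcription factor, was at 4.67, 15.4, 21.9 and 4.06 CPM, so that TN1 lay near HC.

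The peptide-loading genes had few UMIs, and the reason was not tested. RT1-DOa was at 1.70, 1.81, 1.52 and 0.847 CPM in TN1, TN2, TN3 and HC, and RT1-DOb, its partner, had 9, 11, 14 and 2 UMIs. RT1-DMa had 1 UMI in TN1 and 0 elsewhere, and RT1-DMb had 2, 8, 9 and 2, so these counts could not follow the loading dimer DM. The minor loci RT1-Db2 and RT1-Ha had between 1 and 6 UMIs in each area.

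Of the endosomal proteases and reductases, Ifi30, a thiol reductase that opens disulphide bonds of antigens, was at 44.0, 120, 148 and 32.8 CPM in TN1, TN2, TN3 and HC, and TN1 was again closest to HC. Ctss, the protease that trims the invariant chain in macrophages and dendritic cells, showed another order, at 66.6, 27.4, 21.3 and 14.0 CPM. TN1 led over all spots, in central myelin (224, 96.7, 64.1 and 73.8 CPM) and in the ganglion (22.3, 11.5, 5.33 and 2.79 CPM). In central myelin HC lay within the TN range. The broadly used Ctsl, Ctsb, Ctsd and Lgmn had log2 fold changes between -0.34 and -0.01 over all spots and kept HC inside the TN range, except for Ctsb, which was at 1707, 2137 and 1639 CPM in the fit for TN1, TN2 and TN3 and at 2309 in HC. Without TMM, TN2 (2216) and HC (2213) were level for Ctsb.

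Genes of T cell contact and of class II turnover completed the list. Cd86, a costimulatory ligand, was at 1.78, 2.94, 5.18 and 0.750 CPM in TN1, TN2, TN3 and HC, and Cd40, the receptor for the T cell ligand, at 1.49, 1.57, 2.26 and 0.605. Cd83, which keeps class II at the surface, was at 20.6, 15.1, 13.6 and 5.66 CPM. Cd4, the co-receptor, was at 0.807, 0.851, 0.434 and 0.169, on 7 UMIs in HC. Lag3 was at 1.61, 2.30, 2.61 and 2.59 CPM, with HC and TN3 level. Cd44, a signalling partner of Cd74, was at 30.2, 80.3, 73.7 and 21.7 CPM, while Cxcr4, another partner, was lower in all 3 TN areas, at 21.8, 25.7, 26.3 and 27.7 in HC.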

How the data were processed

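For each spot, the authors obtained UMI counts of every gene from Space Ranger (1.2.0 per the file headers) and deposited whole-number counts, not normalized, with all 4 areas in a single matrix. Areas were read from the number after each barcode. No source used here names the build or annotation. The members and gene lists were chosen with earlier results of these data known. A pathway gene that enters the counts is not reported here by name. The named genes were otherwise the members, every pathway and marker list gene and the 15 genes most like the members over spots.

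Spots were clustered with SCTransform and K-means (Seurat 5.3.0, sctransform 0.4.2, R 4.3.3), leaving out the members, pathway and immune lists. Counts were summed per area and region, for regions with at least 20 spots. TN was compared with HC by edgeR 4.0.16 (quasi-likelihood test, TMM, filterByExpr, limma 3.58.1), with Benjamini-Hochberg adjustment, and by DESeq2 1.42.0 as an alternative. The p-values measure the spread between the TN areas, as HC is a single sample. CPM in the text are UMIs scaled to the total of the area or region. Those named as in the fit use TMM. Correlations used log values of counts per 10000 plus a pseudocount of 1. Thinning used 2000 UMIs per spot. Spots may hold several cells, and no doublet caller was run. Promoters are RefSeq's (GRCr8).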

Additional observations from a re-analysis of the deposited data

How the results depend on the processing

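All 154 fitted log2 fold changes of the members, over 3 comparisons and all settings, were positive. The fits share the single HC area and the members were chosen on this contrast, so the sign of these fold changes describes the choice. Of the 140 from alternatives, 131 moved by less than the SD between TN areas, and the 9 others were lower values in the ganglion with log-normalised clustering or cluster 6 alone, and Cd74 in central myelin with log-normalised clustering. The number of genes called against HC was 0 in the main fits. It was 158 (all spots), 133 (ganglion) and 4 (central myelin) with DESeq2. With no filter it was 3 in the ganglion and 1 in central myelin, with log-normalised counts 5 in the ganglion, and with cluster 6 alone, chosen after seeing the data, 4. Leaving out each TN area gave between 0 and 2171 calls over all spots, between 0 and 699 in the ganglion and between 0 and 431 in central myelin, with the calls made without TN1. The TN minus HC difference in the share of spots with Cd74 was 31.3 percentage points thinned, 19.3 unthinned, and 28.1 to 36.8 without each TN area. The ganglion over central myelin ratio of class II per macrophage UMI (median of areas) was 4.19, and 6.51 with 5 macrophage genes, chosen after seeing the data. The other settings left the region, correlation and ratio results within the SD between areas, leaving out TN areas included. For the macrophage correlation that SD was taken over all 4 areas, with HC far below the TN areas. Thinning lowered this correlation from 0.33, 0.47 and 0.45 to 0.21, 0.20 and 0.22 in TN1, TN2 and TN3, and from 0.03 to 0.01 in HC. The mean TN ratio of class II per macrophage UMI over HC was 1.61, and 1.21 to 1.91 without each TN area. The cause of these differences was not tested. No paired analysis was possible because HC is a single area whose label carries no replicate number, so fewer than 2 pairs with the TN areas could be formed. The single HC area, spots that mix cells and the unequal tissue share per area limit all comparisons.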
